A study of Rattus norvegicus with 2 samples.

Results

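The genes examined here were 10 circadian clock genes, Arntl, Clock, Per1, Per2, Per3, Cry1, Cry2, Nr1d1, Nr1d2 and Dbp, out of 13706 protein-coding genes with reads in rat myocardium. They were chosen by name, and each of the 10 had reads in both libraries. The animals were spontaneously hypertensive rats (SHR), an inbred strain whose blood pressure rises with age and whose heart enlarges. The KXH group received Jiangya Kangxian formula, a herbal preparation, at its high dose of 9.6 g/kg, and the water group received distilled water, each into the stomach over 12 weeks. There was 1 library per group, and the labels used here give neither the number of animals behind a library, nor their age or sex, nor the hour at which the hearts were taken.

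The circadian clock is a feedback loop that runs in nearly every cell, the cardiac muscle cell included. BMAL1 (the product of Arntl) and CLOCK bind as a pair to E-box sequences and switch on the Per, Cry, Nr1d and Dbp genes. PER and CRY proteins return to the nucleus and inhibit the pair, while the REV-ERB receptors made from Nr1d1 and Nr1d2 repress Arntl and Clock through ROR elements (ROREs). In rodent heart, Arntl and Clock transcripts therefore peak at about the opposite time of day to Per, Nr1d and Dbp transcripts taken as a group. A shared peak hour within that group is not implied. Cry1 peaks later than Per. A single collection shows a single moment of this cycle. A difference in hour of collection, the treatment and variation between animals cannot be told apart in this design, and no value below has a replicate check.

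The promoter windows of Arntl, Per2 and Nr1d1 are shown because they carry the elements that link the members to each other. The sequences come from RefSeq (assembly GRCr8, which is not the build named for the tables) and hold the 250 bases before the annotated start, read 5′ to 3′ on the strand of the gene. Capitals mark an E-box (CACGTG), an E′-box (CACGTT), a D-box (TTANGTAA, the site of DBP and its relatives), or an RORE with its ROR core (AGGTCA), searched on both strands. Arntl lies on the plus strand (chr1:176766078-176766327), Per2 on the minus strand (chr9:99496994-99497243), and Nr1d1, also on the minus strand, has an upstream start (chr10:84231813-84232062) and a downstream start (chr10:84229455-84229704).
Arntl: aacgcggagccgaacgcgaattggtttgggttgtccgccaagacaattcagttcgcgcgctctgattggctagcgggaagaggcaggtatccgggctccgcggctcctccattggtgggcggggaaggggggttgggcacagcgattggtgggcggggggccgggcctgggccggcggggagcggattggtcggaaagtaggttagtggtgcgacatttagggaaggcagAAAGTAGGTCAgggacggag
Per2: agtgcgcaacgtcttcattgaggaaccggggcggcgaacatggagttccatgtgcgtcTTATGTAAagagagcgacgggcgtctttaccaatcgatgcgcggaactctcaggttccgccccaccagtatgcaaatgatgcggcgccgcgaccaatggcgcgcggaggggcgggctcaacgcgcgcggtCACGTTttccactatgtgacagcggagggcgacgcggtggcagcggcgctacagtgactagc
Nr1d1, upstream start: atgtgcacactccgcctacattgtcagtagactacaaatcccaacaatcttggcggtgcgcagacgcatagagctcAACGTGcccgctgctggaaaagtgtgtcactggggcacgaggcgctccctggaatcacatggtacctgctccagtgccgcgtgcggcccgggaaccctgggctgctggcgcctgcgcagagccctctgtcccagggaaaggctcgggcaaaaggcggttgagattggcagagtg
Nr1d1, downstream start: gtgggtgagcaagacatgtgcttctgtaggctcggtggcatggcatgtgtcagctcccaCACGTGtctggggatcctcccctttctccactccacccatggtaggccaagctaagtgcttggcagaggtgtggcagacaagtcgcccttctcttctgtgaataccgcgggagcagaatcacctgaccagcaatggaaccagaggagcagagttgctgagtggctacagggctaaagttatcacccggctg

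In the Arntl window the RORE consensus began 20 bases before the start, and 0.317% of all 33469 windows in the table held a match to it on either strand. Its core AGGTCA, which overlaps the consensus, occurred in 14.1% of windows. Per2 held an E′-box 62 bases and a D-box 192 bases before its start, motifs found in 4.07% and 2.04% of windows. Nr1d1 held an E′-box at its upstream start and an E-box at its downstream start, and 5.59% of windows held an E-box. Of the other members, Cry2 had an E′-box and Nr1d2 an ROR core, while neither Clock window and none of the single windows of Per1, Per3 and Dbp held any of these letters. In all, 9 of the 10 members had a window. A match describes letters in the reference genome and not a bound site, and it was read from the reference strain rather than from SHR.

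**Figure D1:**
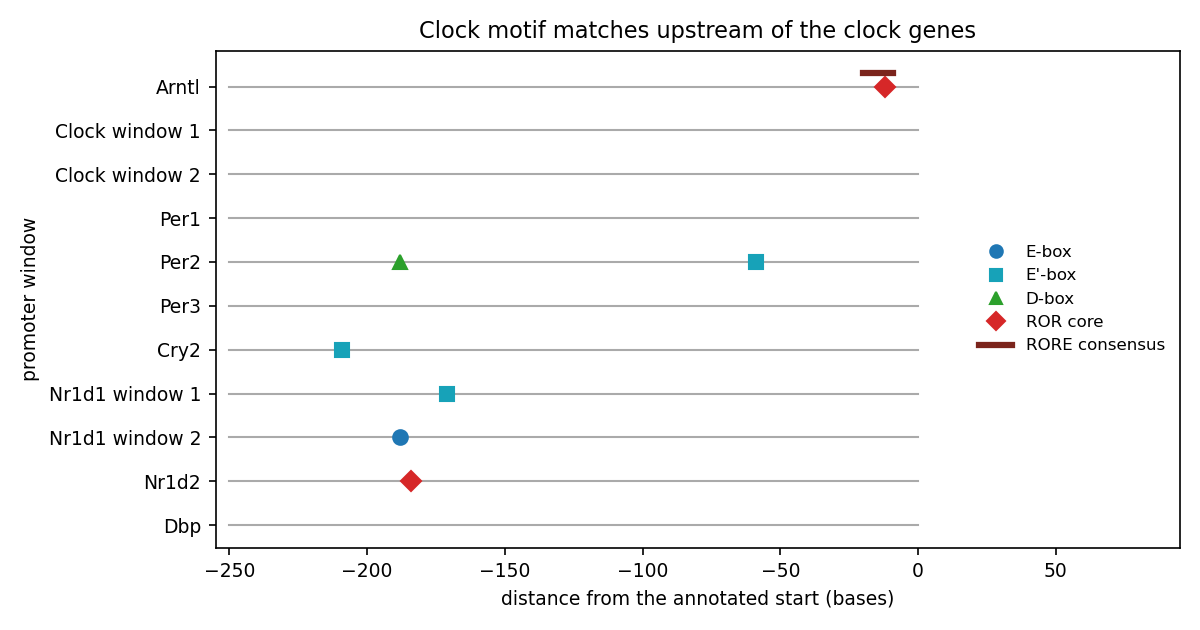
Positions of the searched motifs in the promoter windows of the clock genes. The horizontal axis gives the distance in bases from the annotated start, each line is 1 window of 250 bases, windows of a gene are numbered 5′ to 3′, and symbols mark the motifs. The RORE of Arntl lies next to the start, and the E-box of Nr1d1 lies in its window 2, the downstream start.

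The protein-coding table held 14.1 M reads for the KXH library and 15.1 M for the water library (M, 1000000), and the 10 members took 8823 and 9439 of them. Levels are given as RPKM (reads per kilobase of transcript per 1000000 reads of the table), which can be compared between genes, and ratios as KXH over water with an exact 95% interval that covers counting error only. Of 11 cardiomyocyte markers 10 had reads, and together they came to 44125 RPKM with KXH and 41306 RPKM with water. Of these 10, 6 were higher in the KXH library and 4 lower, each with an interval clear of 1. No row was listed for the remaining marker, Ttn. The median log2 ratio over the 10467 genes tested, those whose RPKM averaged 1 or more, was -0.02, with 45.0% of them above 0 and 55.0% below.

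Both activators were lower in the KXH library. Of the 6 genes of the Per, Nr1d and Dbp group, 5 were higher and Per2 was lower. The group's median log2 ratio was 0.23 and that of Arntl and Clock -0.16, against -0.02 over all genes. All of these differences were small, between 1.09-fold and 1.34-fold. Cry1 and Cry2, also targets of the pair but kept apart from the Per, Nr1d and Dbp group, had log2 ratios of -0.19 and -0.02. Their intervals include 1. Past 1.2-fold, 2 members were higher (Per3 and Nr1d2), where 7.5% of all tested genes were, and 1 was lower (Per2), where 12.1% were. The counting interval lay above 1 for 4 members, against 11.2% of tested genes, and below 1 for 3, against 16.3%. Whether an interval clears 1 depends on the reads of the gene, and the tested genes were not matched to the members in reads. Of 6727 genes with summed reads in the range of the members, 330 to 5034, 4.55% were past 1.2-fold higher and 7.12% lower. The central 95% of their log2 ratios ran from -0.38 to 0.33. Per2 (-0.43) and Per3 (0.37) lay outside it. Their counting intervals reached into that band, from -0.61 to -0.25 for Per2 and from 0.11 to 0.63 for Per3. Both genes lay inside the central 95% of all tested genes, -0.58 to 0.46. In bulk tissue, fewer cells of a type and less RNA per cell cannot be told apart.

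Arntl encodes BMAL1, the partner without which CLOCK cannot drive its targets. It had 819 reads, or 19.6 RPKM, in the KXH library and 1006 reads, or 22.4 RPKM, in the water library. Its level was 1.14-fold lower in the KXH library (1.04 to 1.26), which placed its log2 ratio of -0.19 at the 18.1st percentile of all tested genes. Clock, the partner of BMAL1, described as a histone acetyltransferase, was the member with the most reads, 2314 with KXH and 2720 with water. Its level was 17.7 RPKM with KXH and 19.4 RPKM with water, 1.09-fold lower (1.04 to 1.16; 26.5th percentile). Both activators thus lay on the same side, and reads of Clock per read of Arntl came to 2.83 with KXH and 2.70 with water, 1.04 times as many (0.937 to 1.17), which is within counting error.

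The Per genes, which encode the period repressors, did not move together. Per1, which also answers quickly to glucocorticoids and cyclic AMP, had 1438 reads (25.6 RPKM) in the KXH library and 1335 reads (22.1 RPKM) in the water library, 1.16-fold higher (1.07 to 1.25; 88.9th percentile). For Per3 the counts were 275 reads (5.58 RPKM) with KXH and 228 reads (4.31 RPKM) with water, 1.30-fold higher (1.08 to 1.55). That was the highest ratio among the members, at the 96.0th percentile. Per2, whose loss disturbs the rhythm in mice, went the other way with 434 reads (5.36 RPKM) in the KXH library and 626 reads (7.20 RPKM) in the water library. It was 1.34-fold lower (1.19 to 1.52), the lowest ratio of the 10, at the 5.22nd percentile. Within each library, Per1 had 3.31 reads per Per2 read with KXH and 2.13 with water, a quotient 1.55 times as large (1.34 to 1.80), and for Per3 against Per2 the quotients were 0.634 and 0.364, 1.74 times as large (1.40 to 2.17).

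The cryptochromes, which join PER in the repressor complex, had intervals that include 1. Cry1, the later-peaking cryptochrome, had 279 reads (6.79 RPKM) in the KXH library and 341 reads (7.73 RPKM) in the water library, which is 0.879 times the water level (0.747 to 1.03). A difference was not detectable at this depth. Cry2 was the most abundant member by RPKM in the water library, and its 1336 reads (24.0 RPKM) with KXH and 1459 reads (24.4 RPKM) with water gave a ratio of 0.984 (0.912 to 1.06). Its ratio stood at the 49.4th percentile of tested genes, near the middle of all genes.

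Both REV-ERB receptors, the repressors of Arntl, were higher in the KXH library. Nr1d1 (REV-ERBα) had 373 reads (11.3 RPKM) with KXH and 345 reads (9.77 RPKM) with water, 1.16-fold higher with an interval whose lower end touched 1 (1.00 to 1.35; 89.4th percentile). In the RefSeq table the gene Thra, which encodes a thyroid hormone receptor, overlaps Nr1d1, and the use of strand in counting is not given in the sources used here, so some reads could belong to either gene. Thra itself had 1309 reads with KXH and 1497 with water, a ratio of 0.939 (0.871 to 1.01), on the other side of 1 from Nr1d1. The span of Cry1 is overlapped by the uncharacterised protein-coding gene LOC120093541, which had no row in the protein-coding tables. Those of Clock, Per2 and Cry2 are overlapped by lncRNA genes, whose reads were not looked up here. Nr1d2 (REV-ERBβ), the receptor gene with more reads, had 1382 reads (21.3 RPKM) with KXH and 1222 reads (17.6 RPKM) with water. It was 1.21-fold higher (1.12 to 1.31; 93.2nd percentile).

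Dbp encodes a PAR bZIP transcription factor that carries the rhythm to downstream genes and is among the most strongly cycling transcripts of rodent tissues. Its 173 reads (7.41 RPKM) in the KXH library and 157 reads (6.26 RPKM) in the water library made it the member with the fewest reads. That is 1.18 times the water level (0.948 to 1.48), a difference that was not detectable at this depth.

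**Figure D2:**
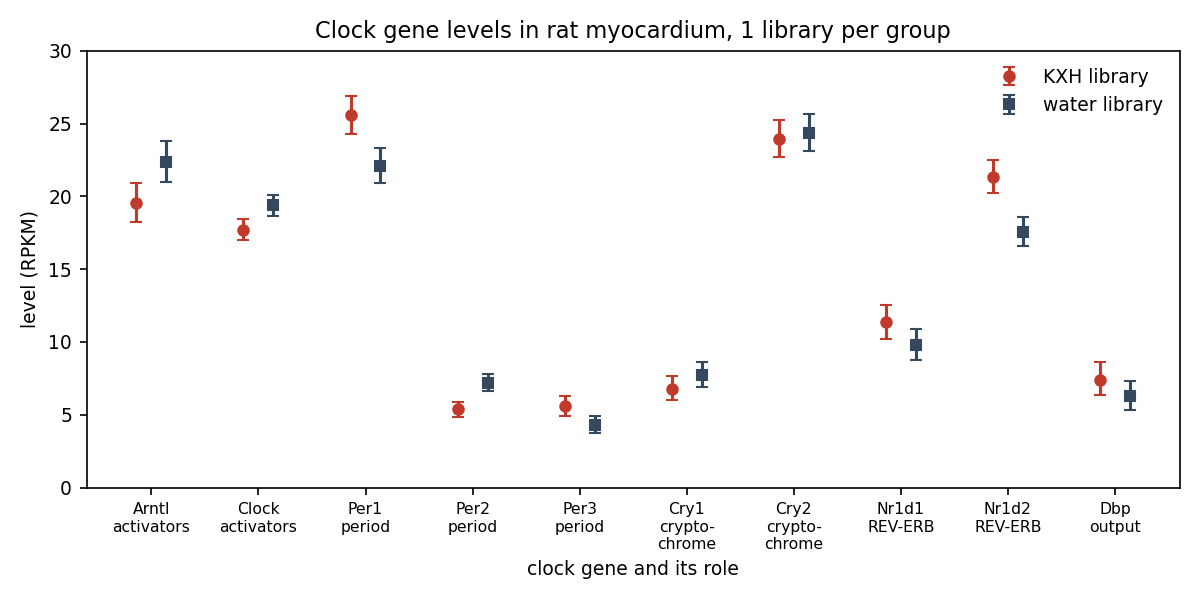
Level of each clock gene in RPKM (vertical axis) in the KXH library (circles, left) and the water library (squares, right), with 95% counting intervals and the role of the gene under its name. Circles lie below squares for Arntl, Clock, Per2, Cry1 and Cry2 and above them for Per1, Per3, Nr1d1, Nr1d2 and Dbp, and the intervals overlap for Cry1, Cry2, Nr1d1 and Dbp.

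The order of the levels differed between the libraries. In the KXH library Per1 stood highest, followed by Cry2, Nr1d2, Arntl, Clock, Nr1d1, Dbp, Cry1, Per3 and Per2. In the water library the order was Cry2, Arntl, Per1, Clock, Nr1d2, Nr1d1, Cry1, Per2, Dbp and Per3. Counting intervals of neighbours in the KXH order overlapped except between Cry2 and Nr1d2, between Clock and Nr1d1, and between Nr1d1 and Dbp. With water, overlap was seen between Cry2 and Arntl, Arntl and Per1, Cry1 and Per2, and Per2 and Dbp. Nr1d2 thus lay above Arntl with KXH, at 1.09 times its RPKM, where the intervals overlapped, and below it with water, at 0.785 times.

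A quotient of reads within a library does not depend on how the libraries are scaled against each other. Dbp had 0.211 reads per Arntl read with KXH and 0.156 with water, and the KXH quotient was 1.35 times the water quotient (exact conditional 95% interval 1.06 to 1.72). For Nr1d2 against Arntl the quotients were 1.69 and 1.21 (1.39 times, 1.23 to 1.57), and for Per3 against Arntl 0.336 and 0.227 (1.48 times, 1.21 to 1.82). Nr1d1 and Per1 against Arntl gave 1.33 times (1.11 to 1.59) and 1.32 times (1.17 to 1.49). Over the 12 quotients of Per, Nr1d and Dbp genes to Arntl or to Clock, 10 were larger in the KXH library with intervals above 1, and those of Per2 were smaller, 0.852 times (0.728 to 0.996) against Arntl and 0.815 times (0.711 to 0.934) against Clock. Quotients of Cry1 and Cry2 to Arntl or to Clock are not among these 12, and all of them had intervals that include 1. Arntl and Clock stood at the 18.1st and 26.5th percentiles of all tested genes, so most tested genes also had a larger quotient to either. The share of all genes with such an interval above 1 was not computed. The quotients given here share the reads of Arntl or Clock, so they are not independent of each other, and the intervals are not adjusted for their number. Summed over the group, there were 4075 reads per 3133 activator reads with KXH and 3913 per 3726 with water (1.24 times, 1.16 to 1.32).

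**Figure D3:**
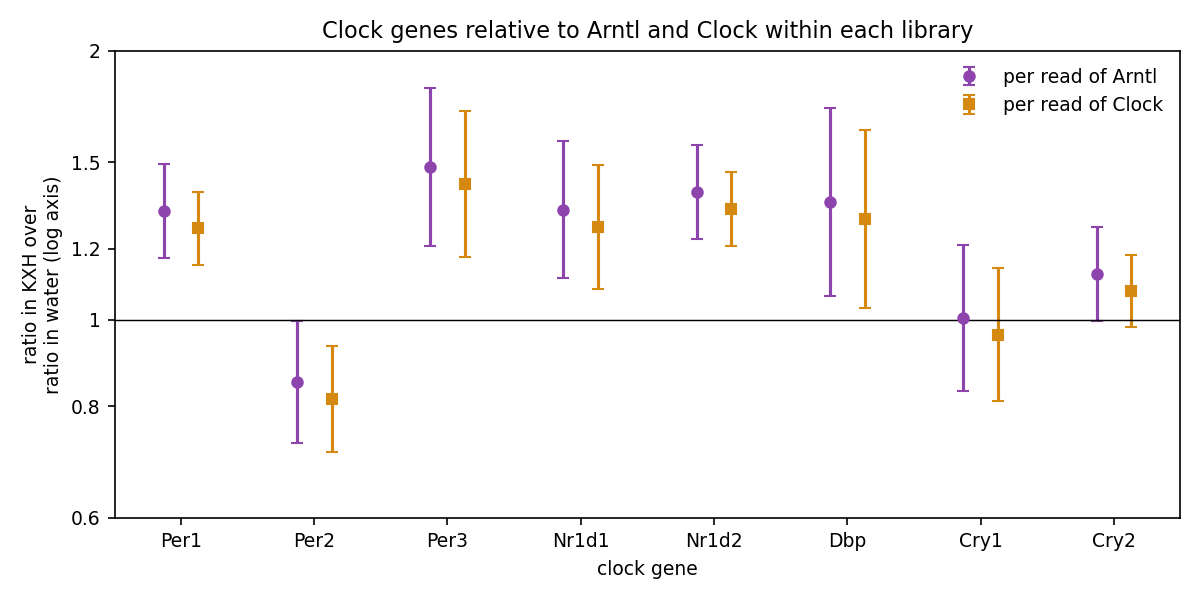
Reads of each clock gene per read of Arntl (circles) or of Clock (squares), as the quotient in the KXH library over that in the water library (log axis) with exact 95% counting intervals. The quotients of Per1, Per3, Nr1d1, Nr1d2 and Dbp lie above 1, those of Per2 below 1, and those of Cry1 and Cry2 have intervals that include 1.

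Other transcription factors of the loop were measured as well. Npas2, a paralog of Clock that also pairs with BMAL1, had 307 reads (5.11 RPKM) in the KXH library and 431 reads (6.68 RPKM) in the water library, 1.31-fold lower (1.13 to 1.52), in the same direction as Arntl and Clock. Nfil3, a REV-ERB target that competes with DBP for D-boxes, was 1.16-fold lower (1.03 to 1.30), at 18.5 RPKM with KXH and 21.4 RPKM with water. Ciart, an E-box target that represses the BMAL1 and CLOCK pair, was 1.95-fold higher (1.02 to 3.84), on only 29 reads with KXH and 16 with water. Tef, a close relative of Dbp, had a ratio of 1.01 (0.943 to 1.08), and Bhlhe40, a repressor that binds E-boxes, one of 0.983 (0.886 to 1.09). Arntl2 had 6 reads with KXH and 7 with water, and Rorb had 0 and 1. Rora, Hlf and Bhlhe41 were not analysed here.

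**Figure D4:**
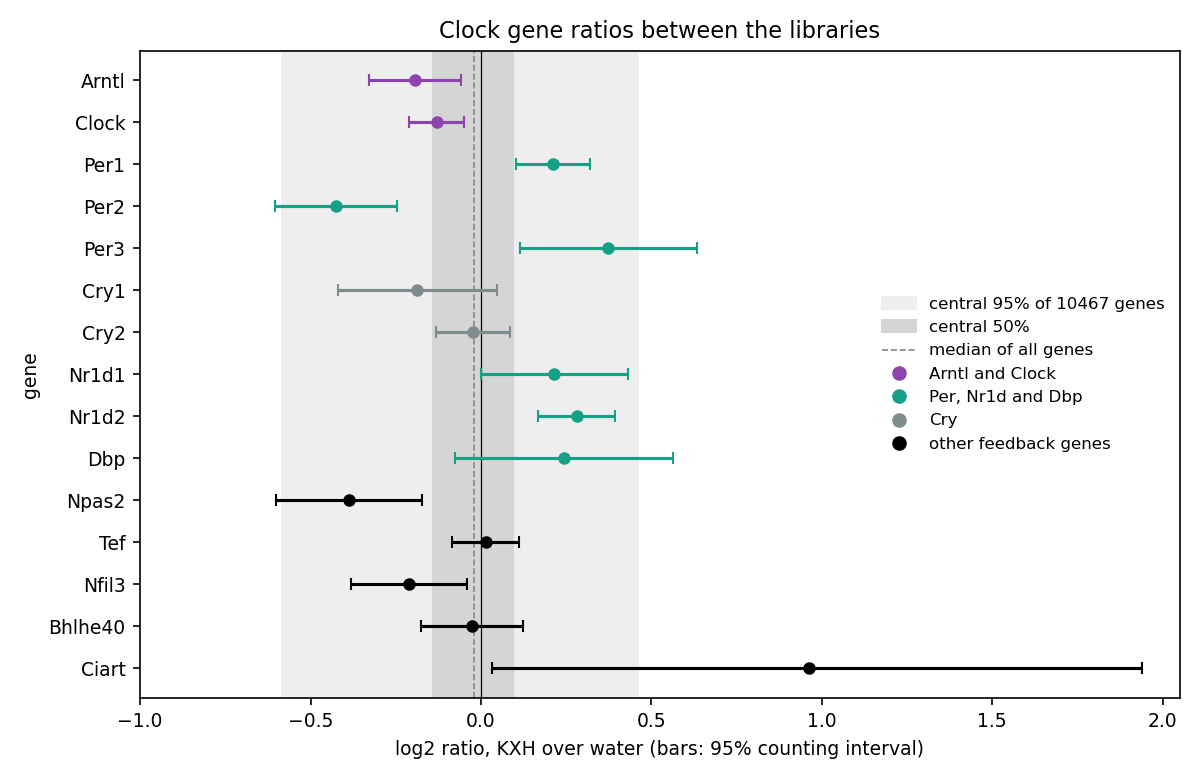
log2 ratio of KXH over water (horizontal axis) for the clock genes and 5 further feedback genes, with 95% counting intervals. Grey bands give the central 95% and central 50% of all 10467 tested genes, from -0.58 to 0.46 and from -0.14 to 0.10. Of the 10 members each lies inside the wider band, and Ciart is the gene outside it.

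Enzymes that phosphorylate or degrade clock proteins lay close to 1. None of the 13 measured members of this list passed 1.2-fold in either direction, and their median log2 ratio was 0.001. The kinase genes Gsk3a and Csnk1a1 lay farthest from 0, at 1.12-fold (1.03 to 1.23) and 1.09-fold (1.02 to 1.16) higher. Cofactors of the clock complexes had a median of -0.07 over 10 measured members, again with none past 1.2-fold. Wdr5, a subunit of histone methyltransferase complexes, was at a ratio of 1.10 (0.989 to 1.23) and the corepressor Ncor1, which REV-ERB recruits, 1.09-fold lower (1.04 to 1.14).

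Genes known to be rhythmic or clock-controlled in heart or other tissues had a median of -0.06 over 14 tested members, with 1 past 1.2-fold higher and 2 lower, shares near the 7.5% and 12.1% of all tested genes. The members past it were Bdh1, an enzyme of ketone body use (61.4 RPKM with KXH and 49.7 RPKM with water, 1.23-fold higher, 1.14 to 1.33), Pdk4, which restrains glucose oxidation (129 RPKM with KXH and 179 RPKM with water, 1.38-fold lower, 1.31 to 1.45), and Ucp3, which encodes a mitochondrial uncoupling protein (8.32 RPKM with KXH and 11.8 RPKM with water, 1.41-fold lower, 1.21 to 1.65). Klf15, which couples the clock to metabolism and ion channels in mouse heart, had a ratio of 1.08 (0.997 to 1.17).

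Because Per1 and Per2 also answer to glucocorticoids, cyclic AMP signalling or temperature, lists of such genes were set beside the clock. Glucocorticoid targets, which include Per1, had a median of 0.06 over 16 members, with 1 past 1.2-fold higher and 3 lower, where 7.5% and 12.1% of all tested genes were. Sgk1, a kinase gene, was 1.27-fold higher (1.15 to 1.40), whereas Fkbp5, which encodes a cochaperone of the glucocorticoid receptor, was 1.24-fold lower (1.16 to 1.33), Angptl4 stood at a ratio of 0.702 (0.479 to 1.02), and Pdk4 is also on this list. Immediate early genes had a median of 0.11 over 17 members, with 5 past 1.2-fold higher, where 7.5% of all tested genes were, and 2 lower, where 12.1% were. Those higher were Nr4a3 (2.07-fold), Egr2 (1.97-fold), Arc (1.78-fold), Egr1 (1.34-fold) and Sik1 (1.34-fold, 1.23 to 1.45), the last a kinase gene induced with Per1 by cyclic AMP. Those lower were Nr4a2 (1.22-fold, 1.02 to 1.48) and Crem (1.22-fold, 1.05 to 1.41), a cyclic AMP response factor. Cold-inducible and heat shock genes had a median of 0.06 over 9 members, with Hsp90aa1 past 1.2-fold higher (1.28-fold, 1.12 to 1.46) and none past it lower, against the same 7.5% and 12.1%. The part of these programs in the Per1 and Per2 values was not tested.

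**Figure D5:**
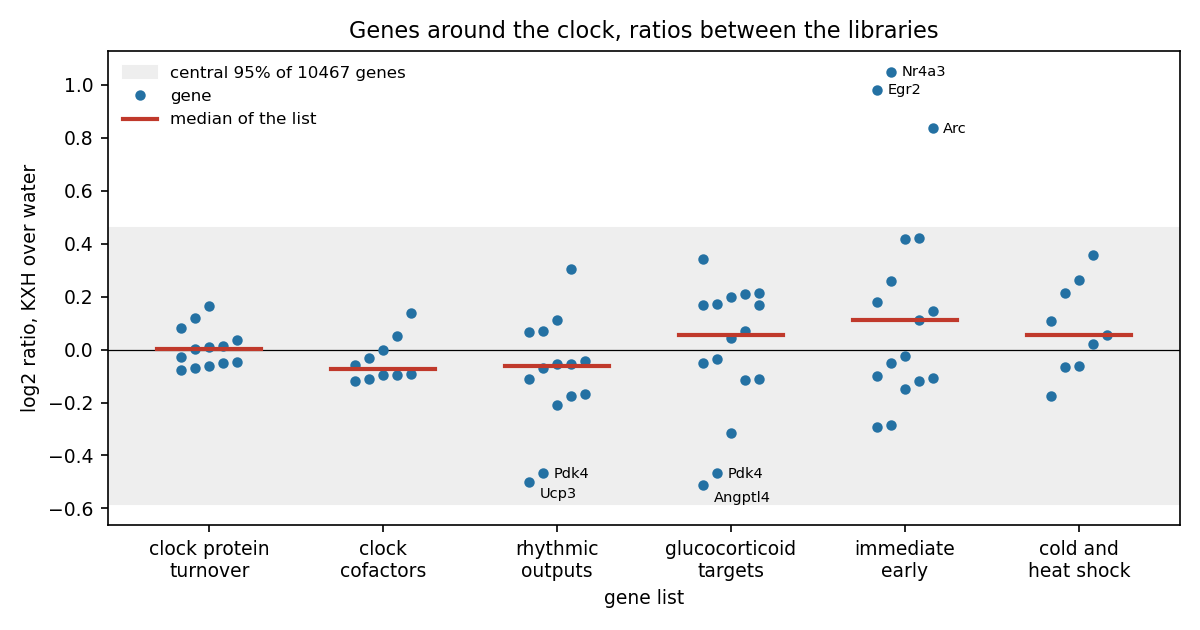
log2 ratio of KXH over water (vertical axis) for single genes (points) of 6 lists around the clock, with the median of each list (bar) and the central 95% of all tested genes (grey). The lists for clock protein turnover and cofactors stay within 0.2 of 0, and Nr4a3, Egr2 and Arc among the immediate early genes lie above the grey band.

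Levels of marker genes for other cell types also differed between KXH and water. Smooth muscle and pericyte markers were lower in 7 of 7 tested members, with summed levels of 322 RPKM in the KXH library and 376 RPKM in the water library. Endothelial markers were lower in 10 of 10 (542 and 609 RPKM) and red cell markers in 6 of 6 (2275 and 3344 RPKM), and fibroblast markers were higher in 7 of 9 (922 and 826 RPKM). Of all tested genes, 55.0% were lower and 45.0% higher. The counting interval lay below 1 for 7 smooth muscle, 8 endothelial and 3 red cell markers, and above 1 for 6 fibroblast markers. Hbb alone made up 2234 and 3283 RPKM of the red cell sums. Macrophage markers summed to 333 and 344 RPKM, with 4 of 9 higher and 5 lower. Farthest from 0 among them was Cd68, 1.74-fold lower (1.34 to 2.27). Lymphocyte markers summed to 23.8 and 25.1 RPKM, of which Cd4 made up 21.3 and 19.8 RPKM. Nkg7, the other lymphocyte marker tested, was 2.72-fold lower (1.42 to 5.57), on 13 reads with KXH and 38 with water. Of the adipocyte markers, Plin1, Cidec and Ucp1 each had 1 read with KXH and 0 with water, and Fabp4, also made by endothelium, made up nearly all of the 400 and 359 RPKM. The part of cell makeup in the clock values was not tested. Taken relative to the median of the cardiomyocyte markers, an alternative chosen after seeing the data, the Per, Nr1d and Dbp group had a median of 0.16 and Arntl and Clock one of -0.23, and 1 member was past 1.2-fold higher and 2 lower. On that scale 4.84% of all tested genes were past 1.2-fold higher and 18.4% lower.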

How the data were processed

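Libraries were made from total RNA of frozen myocardium with an Illumina TruSeq RNA kit, per the labels' protocols. Bowtie 0.12.2 and rn6 are named, with no role, per the submitters' processing notes; the annotation, counter, strand use and filters are not given in those sources. The deposited tables give a whole read count per gene, called unique per the file headers. The deposited RPKM values are that count divided by the length in kilobases, for each 1000000 reads of that table. The covered share of each gene's length was not used in any result. The lncRNA tables, with separate totals of 2.93 M reads for KXH and 3.18 M for water, served only in 1 alternative scaling.

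The members and lists were chosen with earlier results of these data known. With 1 library per group the treatments cannot be tested against each other. Ratios are of reads per table total, with 95% intervals by the exact Clopper-Pearson method, applied to the KXH share of each gene's reads. Quotients within a library have exact conditional intervals. The reads carry no molecular identifiers and may be copies of 1 molecule, so all intervals cover counting error only. Genes whose RPKM averaged at least 1 were set against a threshold of 1.2-fold. Named were all members, the other loop transcription factors and, of each further list, genes past 1.2-fold with at least 50 reads or otherwise the 2 farthest from 0. Exceptions are Klf15, Thra and the markers, named after their values were seen. Current symbols (Bmal1 for Arntl), overlaps and promoter windows came from RefSeq (GRCr8). The steps were tested on simulated data. Other scalings, pseudocounts, folds and filters were tried. Software was scipy 1.17.1, numpy 2.4.6 and pandas 2.3.3 under Python 3.11.15, with figures by matplotlib 3.10.9.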

Additional observations from a re-analysis of the deposited data

How the results depend on the processing

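The log2 ratios of the 10 members were recomputed under 9 alternatives of scaling, pseudocount and length trend. Each of these 90 values stayed inside its counting interval, and 1 changed sign, that of Cry2 (-0.02, and 0.002 with the length trend removed). The median shift over the members ran only from -0.07 to 0.02 across the alternatives. The narrowest member interval, that of Clock, ran from -0.21 to -0.05, so staying inside the intervals says little about robustness. Per2 ranged from -0.50 to -0.37 and Per3 from 0.30 to 0.40. The median of the Per, Nr1d and Dbp group ranged from 0.15, as a mean, to 0.25, and that of Arntl and Clock from -0.23 to -0.13. Counts past 1.2-fold were 2 higher and 1 lower. Centred on the median of all tested genes, or scaled by median of ratios size factors, they were 3 and 1. Relative to cardiomyocyte markers they were 1 and 2, and at 1.5-fold and at 2-fold 0 and 0. By the interval alone, on the main scaling, they were 4 and 3, and this count was not repeated under the other scalings. The share of all genes past 1.2-fold was 7.5% higher and 12.1% lower, 13.7% and 19.9% with no filter, and 4.99% and 6.69% at a mean of at least 5 RPKM, since genes with few reads scatter more. No paired analysis was possible because there is 1 library per group, and for the same reason no replicate could be left out. Depth limits Dbp and Per3 most, the members with the fewest reads, and the intervals of Dbp, Cry1 and Cry2 include 1.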
